A study of Mus musculus with 4 samples.

Results

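The genes described here are 9 inflammatory effectors whose transcription NF-kB can drive: the chemokines Ccl2, Ccl7 and Cxcl1, the adhesion molecules Vcam1 and Icam1, the cytokines Tnf and Il6, the nitric oxide synthase Nos2 and the secreted protease Plau. They were taken from a given list of 9 genes, of 6137 genes that the annotation names on the arrays. Every probe set annotated with one of these symbols alone was used, which gave 10 probe sets of 13057 on 2 array types. The cells were a stable NIH3T3 line, immortalised mouse fibroblasts, in which a promoter shut off by tetracycline controls wild-type PKR. In the withdrawn cultures tetracycline had been taken away for 5 h so that PKR was overexpressed, and in the tetracycline cultures PKR was held off with 1 µg/ml of the drug in DMEM with 5% fetal calf serum. The serum content of the withdrawn cultures is not given in the labels. The labels describe a stable line and do not say whether it is a single clone, and no line without the PKR construct was measured. Each condition was measured on 1 array of the first type and 1 array of a second type, marked MB in the sample titles. No difference therefore has a replicate check, no p-value was computed, and the number of arrays limits the precision.

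NF-kB is a family of dimeric transcription factors that inhibitors of the I kappa B family hold in the cytoplasm. Kinases of the IKK complex mark the inhibitors for destruction, and the released dimers enter the nucleus and switch on genes for chemokines, cytokines, adhesion molecules and their own inhibitors. PKR, a kinase activated by double-stranded RNA and encoded by Eif2ak2, is known to reach this pathway through IKK. Fibroblasts respond to inflammatory signals by secreting chemokines and interleukin-6, whereas TNF and inducible nitric oxide synthase are best known as products of activated macrophages.

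The effectors divided by level, and none with a usable value reached a 2-fold difference. Ccl2, Cxcl1, Ccl7, Vcam1 and Il6 lay clearly above background in both conditions, and their withdrawn and tetracycline readings were close. Nos2 and Plau were above background with tetracycline only, and Icam1 and both Tnf probe sets were at background in both conditions. Background was set by a control floor, the 95th percentile of the readings that 39 controls for bacterial and yeast sequences gave on both arrays of a type. For the first type it was 281.5 intensity units, and for the MB type 340.4. Readings are set against this floor and between conditions only, since intensities of different probe sets are not comparable as levels. A probe set was counted as different when its 2 readings were both above this floor and at least 2-fold apart. By this rule 0 of 2 effectors were counted on the first type, against a background of 3.18% of all probe sets above the floor. On the MB type 0 of 3 were counted, against 2.74%. With so few effectors and such small shares, a count of 0 does not set these genes apart. A lower floor, the 25th percentile of all values of an array type, changed the count: 1 of 3 effectors on the first type (Nos2, lower) was then past 2-fold against 8.38% of all probe sets, and 1 of 6 on the MB type (Icam1, lower) against 15.1%.

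**Figure D1:**
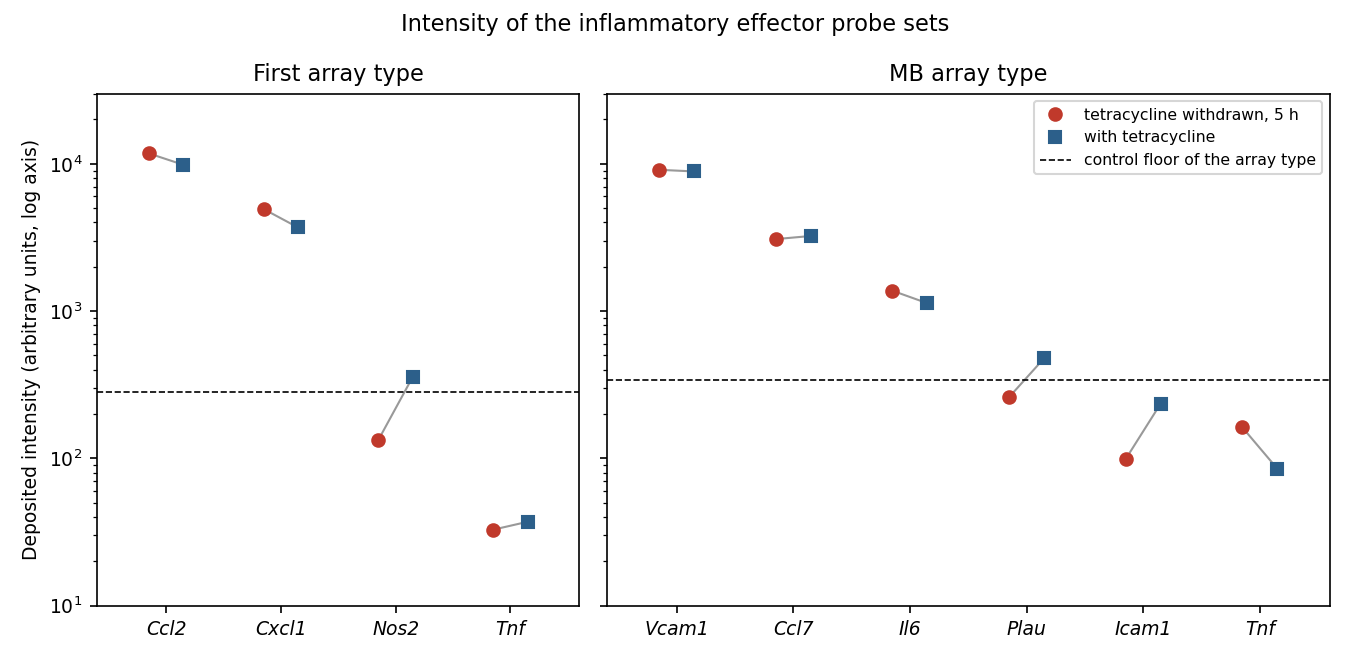
Deposited intensity (log axis) of each effector probe set, with the withdrawn array (red circles) left of the tetracycline array (blue squares), for the first array type (left panel) and the MB type (right panel). The dashed lines are the control floors of 281.5 and 340.4. Ccl2, Cxcl1, Vcam1, Ccl7 and Il6 sit above the floor on both arrays, Nos2 and Plau cross it, and Icam1 and both Tnf probe sets stay under it.

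RefSeq promoter sequences (GRCm38.p6, 250 bases before to 50 bases after the annotated start) were available here for 4 of the 9 genes. They are shown because they include effectors on both sides of the floor: Cxcl1 and Il6 above it, Icam1 and Tnf below it. Capitals mark matches to the 10-base NF-kB consensus, searched on both strands. Cxcl1 is at chr5:90890995-90891294 and Il6 at chr5:30012864-30013163, both on the plus strand. Icam1 is at chr9:21015690-21015989 on the plus strand and Tnf at chr17:35201958-35202257 on the minus strand. All 4 are printed 5′ to 3′ in the direction of transcription.
Cxcl1: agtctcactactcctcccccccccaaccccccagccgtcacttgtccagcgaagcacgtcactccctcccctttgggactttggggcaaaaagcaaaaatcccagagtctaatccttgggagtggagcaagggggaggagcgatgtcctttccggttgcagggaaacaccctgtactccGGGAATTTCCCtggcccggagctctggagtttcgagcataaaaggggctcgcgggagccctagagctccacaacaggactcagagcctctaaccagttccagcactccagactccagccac
Il6: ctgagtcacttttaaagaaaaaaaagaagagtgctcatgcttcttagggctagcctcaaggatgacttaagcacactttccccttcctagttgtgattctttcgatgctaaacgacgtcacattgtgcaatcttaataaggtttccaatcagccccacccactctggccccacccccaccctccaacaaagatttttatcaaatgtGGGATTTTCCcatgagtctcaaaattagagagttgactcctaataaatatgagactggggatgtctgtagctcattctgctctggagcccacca
Icam1: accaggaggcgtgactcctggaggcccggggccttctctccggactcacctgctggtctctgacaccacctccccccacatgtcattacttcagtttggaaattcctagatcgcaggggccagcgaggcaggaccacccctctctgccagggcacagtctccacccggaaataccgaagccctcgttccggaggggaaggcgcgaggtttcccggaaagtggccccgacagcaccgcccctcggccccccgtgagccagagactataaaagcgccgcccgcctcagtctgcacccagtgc
Tnf: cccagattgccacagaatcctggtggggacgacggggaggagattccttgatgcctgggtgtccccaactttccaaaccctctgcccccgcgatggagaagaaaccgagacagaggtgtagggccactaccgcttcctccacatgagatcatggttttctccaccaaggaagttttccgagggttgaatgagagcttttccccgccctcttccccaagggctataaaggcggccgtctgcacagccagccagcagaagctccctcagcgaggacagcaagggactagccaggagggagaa

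The Cxcl1 window held 2 overlapping consensus matches, 1 on each strand, which together cover the single capital run. The Il6 window held 1 match, whose first base lies 44 bases before the start. The Icam1 and Tnf windows held 0 matches, which says only that these letters are absent from these windows. Of 32841 promoter windows in the table, 8.46% held the consensus. The Il6 window also held 1 AP-1 site (TGACTCA, both strands, present in 5.2% of windows) and 1 C/EBP site (TTGCNNAA, both strands, present in 10.8%). Neither overlapped the NF-kB match, and the other 3 windows held 0 of either. These matches describe the sequence and were not tested as binding sites.

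All 3 chemokine genes were well above the floor, and none reached a 2-fold difference. Ccl2, which encodes MCP-1 and attracts monocytes through the receptor CCR2, read 11759.7 on the withdrawn array and 9845.4 on the tetracycline array of the first type. Both readings were far above the floor, at 41.8 and 35.0 times its value. The withdrawn reading was 1.19-fold the tetracycline reading, a log2 difference of 0.26. As there are no replicates, each difference is set beside a spread, the scaled median absolute deviation of the log2 differences of the 200 probe sets nearest in level. This spread mixes measurement noise with real differences. For Ccl2 it was 0.262, slightly more than the difference itself.

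Cxcl1, which encodes the neutrophil attractant KC, read 4927.9 on the withdrawn array and 3695 on the tetracycline array. Its ratio of 1.33-fold, a log2 difference of 0.42, was the largest among the 5 effectors above the floor. As deposited it was the only one larger than its own spread, which was 0.28. Under median ratio, quantile and loess scaling Ccl2 also exceeded the spread given for it, with 0.27, 0.35 and 0.35. The middle 50% of all probe sets above the floor ran from -0.26 to 0.27 on the first type, which leaves Cxcl1 outside and Ccl2, as deposited, inside.

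Ccl7, which encodes the related monocyte attractant MCP-3, read 3080.2 on the withdrawn array and 3234.4 on the tetracycline array of the MB type. The log2 difference of -0.070 was the only negative one among the 5 and was small against a spread of 0.33. Ccl7 directly follows Ccl2 among protein-coding genes of chromosome 11 in the RefSeq table, and Ccl11, the eosinophil attractant eotaxin, follows Ccl7. Ccl2 and Ccl7 were thus both well above the floor, while Ccl11 read 9.8 on the withdrawn array and 7.8 on the tetracycline array of the first type, far below it. Since Ccl2 and Ccl7 were measured on different array types, their differences were not compared with each other. The next gene after Cxcl1 is Cxcl2, another neutrophil attractant, which read 27.6 on the withdrawn array and 234.6 on the tetracycline array of the MB type, both below the floor.

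Of the adhesion molecules, Vcam1 was abundant and Icam1 was not detectable above background. Vcam1 encodes the ligand of the integrin VLA-4 on leukocytes. It read 9102.7 on the withdrawn array and 8869.4 on the tetracycline array, 26.7 and 26.1 times the floor. The log2 difference was 0.037, against a spread of 0.28. It was 0.16 with quantile normalization and 0.12 with loess, still within that spread. Icam1, the ligand of the integrin LFA-1, read 98.9 on the withdrawn array and 235.3 on the tetracycline array. Both lie below the floor of 340.4, so no fold is given.

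Of the cytokines, only Il6 was above the floor. It encodes interleukin-6, which acts through a receptor chain and the shared subunit gp130, and it read 1374.2 on the withdrawn array and 1129.9 on the tetracycline array. The readings were 4.04 and 3.32 times the floor. The log2 difference of 0.28 was within the spread of 0.40 but just past the upper quartile of all MB probe sets above the floor, whose quartiles were -0.216 and 0.275. Tnf, which encodes tumour necrosis factor, read 32.8 and 37.1 on the withdrawn and tetracycline arrays of the first type, below the median of the control probe sets there (41.6 and 63.2). Its MB probe set read 162.5 on the withdrawn array and 85.1 on the tetracycline array, above the control median (54.2 and 69.7) but below the floor. The 2 Tnf probe sets thus had opposite orders, both within background. A further probe set annotated to Tnf together with Lta and Ltb was left out, and it too was below the floor on both arrays. Also left out was an MB probe set with a Tnf label in its name but no gene annotation. It read 21.2 on the withdrawn array and 24.2 on the tetracycline array, below the floor and in the order seen on the first type.

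The enzyme and the protease were the 2 effectors that crossed the floor, both in the same direction. The share of all probe sets that crossed it this way was not counted, so the shared direction does not set these genes apart. Nos2, which makes nitric oxide, read 133.3 on the withdrawn array and 357.8 on the tetracycline array of the first type. Because the withdrawn reading is at background, only a bound against the floor follows: by it, Nos2 was at least 1.27-fold lower after withdrawal. Plau, the urokinase that turns plasminogen into plasmin, read 260.3 on the withdrawn array and 477.5 on the tetracycline array of the MB type, at least 1.40-fold lower. Both bounds are under 2-fold. For comparison, the brightest of the 39 bacterial and yeast controls on each type was for bacterial BioD. It is among the hybridization controls, which an alternative floor left out, and whether its reading is background was not tested. On the first type it read 222.3 on the withdrawn array and 447.5 on the tetracycline array. It thus crossed the floor in the same direction as Nos2, with a tetracycline reading above that of Nos2. On the MB type it read 1212.8 on the withdrawn array and 263.8 on the tetracycline array.

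**Figure D2:**
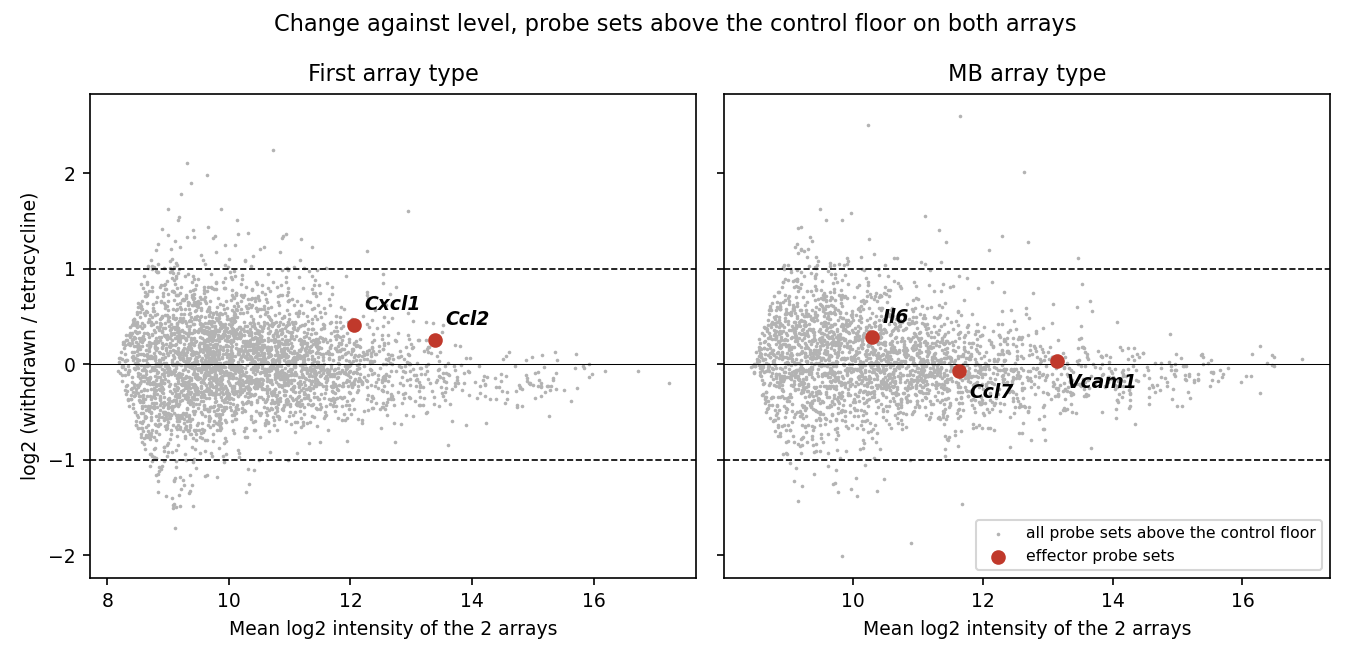
Log2 of withdrawn over tetracycline intensity against the mean log2 intensity, for all probe sets above the control floor on both arrays (grey) and the effectors among them (red), by array type. Dashed lines mark 2-fold. All 5 effectors lie between these lines, from -0.070 for Ccl7 to 0.42 for Cxcl1.

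Over the effectors above the floor, the median log2 difference was 0.34 for the 2 on the first type, against -0.011 for all 3555 probe sets above the floor. On the MB type it was 0.037 for the 3 effectors, against 0.0092 for all 2738. With quantile normalization these MB medians were 0.16 and -0.011, and with loess 0.12 and -0.0069. In all, 4 of the 5 read higher after withdrawal to some extent, where 48.8% of all probe sets of the first type did and 51.1% of those of the MB type. In both array types 50% of the effector probe sets passed the floor on both arrays, against 54.5% of all on the first type and 41.9% of all MB probe sets. The share of effectors above background was therefore near that of the arrays as a whole.

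How far such small differences can be read was gauged from genes measured on both array types. For 171 genes with a probe set above the floor on each type, the 2 log2 differences of a gene lay a median of 0.29 apart, and 90% of genes lay within 0.75. They had the same sign in 59.1% of genes. The largest effector difference, 0.42 for Cxcl1, was smaller than that 0.75. The 0.75 is a gap between 2 differences and 0.42 is a single difference, so the 2 values are unlike measures. None of the 5 effectors above the floor had a named probe set on the other type. Of the 10 probe set names, 9 end in _s_at, which in Affymetrix naming marks a set that can match more than one related transcript.

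**Figure D3:**
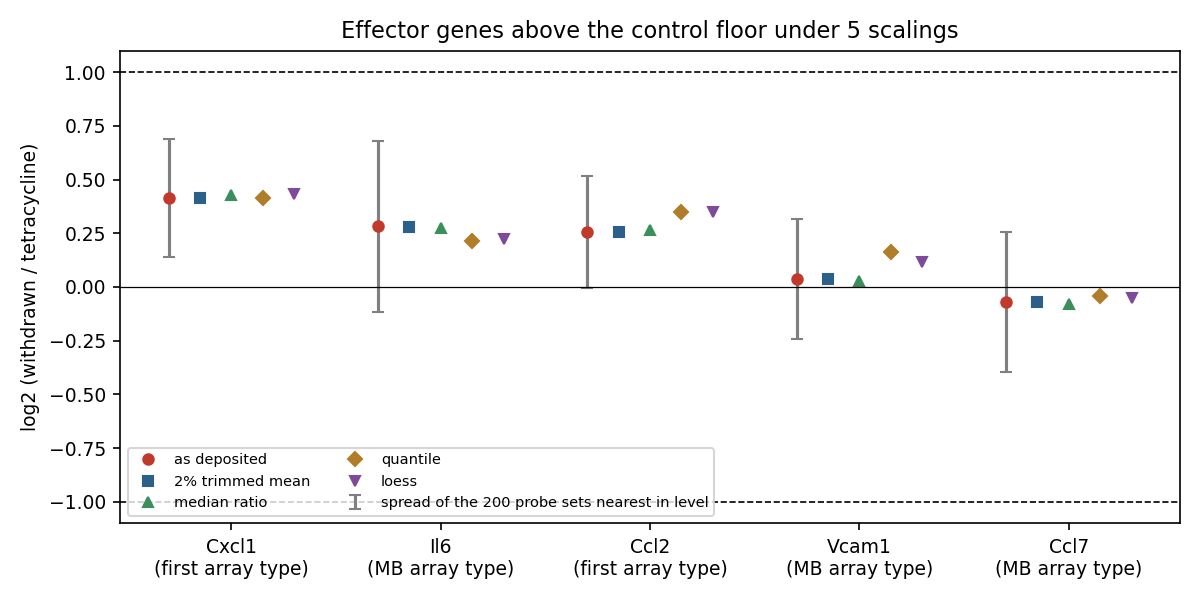
Log2 of withdrawn over tetracycline intensity for the 5 effectors above the floor, as deposited (red circles, with the spread of the 200 probe sets nearest in level as bars) and after 4 further scalings. Each gene keeps its sign under all 5 scalings, Cxcl1 staying between 0.41 and 0.43 and Ccl7 between -0.080 and -0.042.

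Of 20 listed receptors and partners of these effectors, 17 had a probe set, and none was past 2-fold between values above the floor. On the first type 48.8% of all probe sets above the floor read higher after withdrawal to some extent. Of the 14 receptor and partner probe sets there, 6 were above the floor on both arrays, and all 6 read lower to some extent. Their median log2 difference was -0.29, against -0.011 for all. They were Tnfrsf1a and Tnfrsf1b, which encode the TNF receptors, Il6st, which encodes gp130, the urokinase receptor gene Plaur, the tissue plasminogen activator gene Plat and Adam17, whose product releases TNF from the membrane. The lowest was Plat at -0.53 (739.6 on the withdrawn array, 1068 on the tetracycline array). On the MB type 4 of 9 were above the floor, with a median of 0.029 against 0.0092 for all. Plaur and Il6st were measured on both types with opposite signs: -0.16 and 0.38 for Plaur, -0.23 and 0.15 for Il6st, each with the first type given before the MB type. Itgb1, which encodes the beta chain of VLA-4, read 7546.7 on the withdrawn array and 8444.7 on the tetracycline array, and the alpha chain gene Itga4 was not above the floor on both arrays in any of its 3 probe sets. The receptor genes Ccr1, Ccr3, Cxcr2 and Itgb2 were below the floor in both conditions. Ccr2 read 243.7 on the withdrawn array and 380.7 on the tetracycline array of the first type, above the floor with tetracycline only. Probe sets of Plg, Ackr1 and Itga4 and a second Tnfrsf1b probe set crossed the floor the same way on that type. No probe set of this list crossed it the other way. The share of all probe sets that crossed it with tetracycline only was not counted, so this direction does not set the list apart.

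Of 15 listed NF-kB subunits, kinases and inhibitors, 9 had a probe set, and some were past 2-fold on the same arrays. On the first type 1 of 4 above the floor was higher by 2-fold, the subunit gene Relb at 3165.2 on the withdrawn array and 1230 on the tetracycline array (log2 difference 1.36). Of all probe sets above the floor there, 1.88% were past 2-fold in this direction. On the MB type 2 of 3 were, both for Nfkbia, the gene of the inhibitor I kappa B alpha, with log2 differences of 1.28 and 1.34, against 1.97% of all probe sets. Inhibitor genes above the floor on the withdrawn array only were Nfkbib, at least 2.08-fold higher on the first type (584.3 withdrawn, 165.3 tetracycline), and Tnfaip3, at least 2.65-fold higher on the MB type (901.4 and 10.8). The BioD control crossed the MB floor in the same direction as Tnfaip3, with a brighter withdrawn reading (1212.8 withdrawn, 263.8 tetracycline). The share of all probe sets that crossed the floor in either direction was not counted. The adaptor gene Traf2 crossed the floor the other way in 1 of its 2 probe sets, at least 1.45-fold lower. Ikbkg, the regulatory subunit of the IKK complex, read 519.6 on the withdrawn array and 782.9 on the tetracycline array (-0.59). The subunit gene Rela read 2213.7 on the withdrawn array and 1704.5 on the tetracycline array (0.38), a difference of the size seen for Cxcl1.

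Of 34 listed other inflammatory NF-kB targets, 31 had a probe set. On the first type 11 of 25 probe sets were above the floor, none of them past 2-fold higher against 1.88% of all. Their median was -0.11, and 3 of the 11 read higher to any extent, against 48.8% of all. On the MB type 6 of 16 were above the floor, 1 of them past 2-fold higher against 1.97% of all. Their median was 0.42, and 4 of the 6 read higher to any extent, against 51.1% of all. Tnfaip2, a TNF-induced gene, read 844.1 on the withdrawn array and 360.2 on the tetracycline array (1.23), and a second Tnfaip2 probe set on the first type was below the floor. The secreted factor gene Ptx3 read 8326.4 and 11559.9 (-0.47), and the mitochondrial superoxide dismutase gene Sod2 7970.8 and 5296.5 (0.59), on the withdrawn and tetracycline arrays. The chemokine gene Cxcl5 read 7224.7 on the withdrawn array and 7382.1 on the tetracycline array (-0.031). Mmp3 (405.6 withdrawn, 17.8 tetracycline) and 1 Cfb probe set (501.4 and 195.1) were above the floor on the withdrawn array only, both on the MB type. Il1rn (79.3 and 330.7) was above it with tetracycline only, on the first type. The first-type Cfb probe set was above the floor on both arrays (-0.11). The cytokine genes Il1a and Il1b, known like Tnf from macrophages, were below the floor in both conditions. These lists were chosen with earlier results of these data known, so Relb, Nfkbia and Tnfaip2 are no independent evidence.

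**Figure D4:**
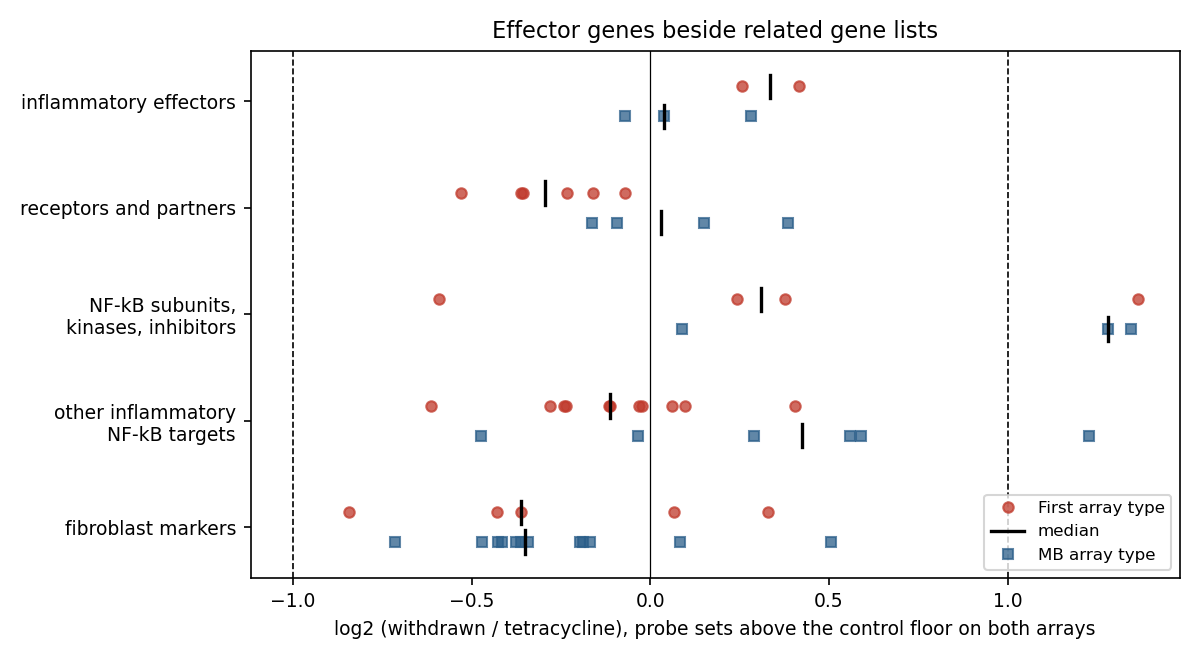
Log2 of withdrawn over tetracycline intensity for probe sets above the control floor on both arrays, by gene list and array type (red circles, first type; blue squares, MB type), with list medians as black bars and 2-fold as dashed lines. The effectors stay between -0.070 and 0.42, while Relb (1.36), both Nfkbia probe sets (1.28 and 1.34) and Tnfaip2 (1.23) pass the right dashed line.

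The cells were checked against markers of their own and other types. Fibroblast markers were above the floor on both arrays in 5 of 6 probe sets of the first type, against 54.5% of all probe sets there. On the MB type 12 of 12 were, against 41.9% of all. Their median log2 differences were -0.36 and -0.35, against -0.011 and 0.0092 for all probe sets above the floor. Near those shares over all probe sets, 4 of 8 probe sets of macrophage markers were above the floor. Among them the defining genes Csf1r and Adgre1 and the scavenger receptor gene Cd68 were below the floor in both conditions, whereas Ptprc, Lyz2, Spi1 and Cd14 were above it. The summed level of the macrophage markers was 2136.8 on the withdrawn array and 1973.8 on the tetracycline array of the first type, and 3506.8 and 3298.4 on the MB type. Within the first-type sum Ptprc read lower after withdrawal, at 363.9 against 710.1 with tetracycline (-0.96). Fcgr3 read higher, at 505.6 against 240.8, and was above the floor on the withdrawn array only. Lyz2, Spi1 and Cd68 also read higher there. Endothelial markers were above the floor on both arrays in 0 of 7 probe sets, and lymphocyte markers in 1 of 9. The summed endothelial levels were 248.5 (withdrawn) and 241.8 (tetracycline) on the first type, and 539.1 and 847.1 on the MB type. The summed lymphocyte levels were 1334.2 and 1428.4 on the first type, and 550.2 and 1575.7 on the MB type. The lower MB sums after withdrawal rested mainly on 1 probe set each, Tie1 (122.4 and 547.8) and Ighm (192.9 and 946.8). Another Ighm probe set (69.7 and 347.4) and Cd3g (82.3 and 207.4) also read lower. Kdr (416.7 and 299.3) and Cd79a (205.3 and 74.1) read higher. Cd3g and Cd79a were below the floor on both arrays. The part of these endothelial and lymphocyte probe sets in the result for Plau, on the same arrays, was not tested. Nor was the part of the macrophage probe sets in the result for Nos2 on the first type. The only probe set of Eif2ak2 read 663.6 on the withdrawn array and 643.3 on the tetracycline array. The species of the PKR construct is not stated, so this mouse probe set does not check its induction.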

How the data were processed

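Total RNA was measured on 4 arrays. The deposited tables give 1 linear intensity per probe set, with no detection calls, and how the authors made these intensities is not given in the sources used here. Values were used as deposited, since the 2% trimmed means lay between 997 and 1000.4. The 61 control probe sets per type stayed out of all counts. Genes were named from the platform annotation, and outdated symbols were replaced by way of the Entrez gene number. The first type holds 5541 probe sets with 1 symbol, 197 with several and 785 with none. For the MB type these are 2001, 27 and 4506.

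All effectors are named, with their roles. Beside them are named the genes of the other lists past 2-fold above the control floor, Eif2ak2, and further list genes chosen after their values were seen. No gene was sought for a similar pattern, since each array type has only 2 arrays. The members and lists were chosen with earlier results of these data known. The comparison between array types was added after seeing the data. Counting was tested on simulated data with the same noise at all levels and changes planted only in probe sets several times above the floor. That range leaves out Il6, Nos2, Plau, Icam1 and Tnf. Alternatives were 4 scalings, 3 floors, an offset of 100, limits of 1.5-fold and 3-fold, and the brightest probe set per gene. Python 3.11.15, numpy 2.4.6, pandas 2.3.3, statsmodels 0.14.6 and matplotlib 3.10.9 were used.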

Additional observations from a re-analysis of the deposited data

How the results depend on the processing

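The counts of 0 effector probe sets past 2-fold depended on the floor. At a floor set at the 25th percentile of all values (130 for the first type and 80.0 for the other) 1 effector was counted on each type, Nos2 with a log2 difference of -1.42 and Icam1 with -1.25, where 8.38% and 15.1% of all probe sets were counted. Plau (-0.88) and the MB probe set of Tnf (0.93) also gained values at that floor, and the MB median became -0.017. Under the 10 other alternatives the counts were 0. All 40 alternative values of the 5 effectors above the floor kept their sign and moved from the deposited value by less than the spread given for each. The MB median became 0.16 with quantile normalization and 0.12 with loess. The bound was 1.22 to 1.28 for Nos2 and 1.40 to 1.49 for Plau, and neither has a bound at 2 times the floor, where both readings are at background. No paired analysis was possible because each condition has 1 array per type. Signal over background limits Icam1, Tnf, Nos2 and Plau.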
